A study of Mus musculus with 6 samples.

Results

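The immediate early genes Fos, Fosb, Jun, Junb, Egr1, Egr2, Egr3, Ier2, Ier3 and Myc were followed in the lungs of endotoxaemic mice given antithrombin or saline. The 10 genes were chosen by name, and each was read on its brightest probe among those whose RefSeq transcript belongs to it. They are 10 of the 32426 genes and unnamed probes tested, of which 17506 carry a gene symbol. All 10 were well above background on all 6 arrays. They had 15 probes between them, of which 13 were well above background on at least 3 arrays and 2, 1 of Fosb and 1 of Egr3, on none.

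Male C57BL6 mice aged 10 weeks were starved for 16 h and injected intraperitoneally with lipopolysaccharide (LPS), the outer membrane component of Gram-negative bacteria that provokes septic inflammation, at 20 mg/kg. In 1 group saline was given 3 h and 24 h after the LPS, and in the other recombinant antithrombin, the plasma inhibitor of thrombin, at 750 IU/kg at the same times. Whole lungs were taken at 30 h, and total RNA from each of the 3 mice per group was read on its own Agilent array, labelled with a single dye. All 6 mice had received LPS, and no mouse without LPS was analysed here, so the values compare antithrombin with saline and do not show what LPS itself did.

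Immediate early genes are switched on within minutes of a stimulus, from transcription factors that already sit in the cell, and need no new protein synthesis. Mitogen-activated protein kinases acting on SRF with its ELK partners, and CREB acting at cyclic AMP response elements, are the best known inputs, with NF-kB a further input during inflammation. Most of the products are themselves transcription factors, such as the AP-1 dimers of FOS and JUN proteins and the zinc finger EGR proteins, and most of the transcripts are unstable, so that a level reports recent activity. Tissue handling also induces many of them.

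Each level is a log2 processed signal less the 75th percentile of its array, so it can be compared between mice for a gene but not between genes. Lung markers were in place on every array: the 5 alveolar type 2 markers, surfactant proteins among them, had means of 6.92 to 7.16 log2 on the 6 arrays. The array of saline mouse 2 stood apart from those of the other saline mice for the immediate early genes. It held the highest saline value for 10 of 10 of them, against 36.7% of all tested genes, and exceeded the mean of saline mice 1 and 3 by a median of 0.69 log2, against -0.01 over all tested genes. The difference of each of the 10 genes and the median of each related list are therefore also given without it, as are named related genes that it moved across the adjusted threshold. That mouse was singled out on these same 10 genes, so leaving it out had to raise each of their differences, and the counts and p without it describe how far they rest on 1 array and are not independent evidence. Between 69.8% and 72.1% of probes were well above background on each array. In whole lung, fewer cells of a type and less RNA per cell cannot be told apart.

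With all 6 arrays none of the 10 genes passed limma's test after Benjamini-Hochberg adjustment over all tested genes, a call that 0.00617% of tested genes reached. At an unadjusted p under 0.05, 3 of 10 were higher with antithrombin (Myc, Egr3 and Egr2), against 8.74% of all tested genes, and 0 of 10 were lower, against 12.9%. The same 3 were the members whose groups did not overlap, all of them higher with antithrombin, against 10.7% of tested genes higher and 18.1% lower. The median difference, antithrombin minus saline, was 0.50 log2 over the 10 genes and -0.05 over all tested genes, and 7 of 10 differences were positive, against 43.0%.

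Without saline mouse 2, which left 2 saline and 3 antithrombin arrays, 4 of the 10 genes passed the adjusted threshold and were higher (Egr1, Egr3, Ier3 and Myc), against 4.66% of tested genes higher and 5.9% lower, a background for which no such choice was made. Members with an unadjusted p under 0.05 then numbered 6, all higher, against 13.5% of tested genes, and 7 did not overlap, all higher, against 21.2%. The median was 0.75 log2 over the 10 genes and -0.06 over all. Without saline mouse 1 or without antithrombin mouse 3, only 1 of the 10, Myc, had an unadjusted p under 0.05. Calls fell over all 32426 tested too, where the genes higher at that p were 1898 and 1829, against 2833 with all mice.

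**Figure D1:**
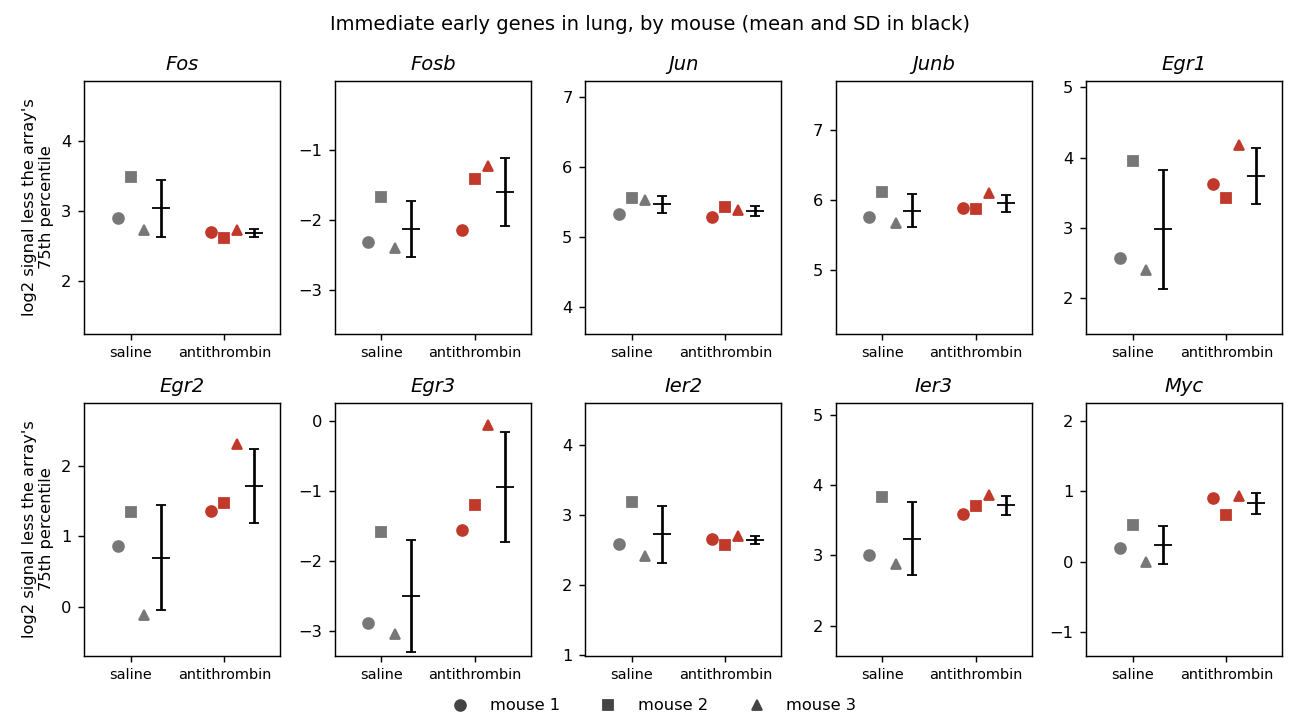
Level of each immediate early gene in each mouse, as log2 signal less the 75th percentile of the array, with each gene on its own axis of equal span. Circles, squares and triangles are mice 1, 2 and 3 of the saline (grey) and antithrombin (red) groups, and the black bars are the mean and SD of 3 mice. The square of saline mouse 2 is the highest saline point in all 10 panels.

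Letter matches to the motifs of known inputs are shown for 3 of these genes. RefSeq promoter windows, 250 bases before to 50 after an annotated start in GRCm38.p6, were taken for 6 of the 10 genes. Those of Egr2, Fos and Ier3 are printed because they hold, in turn, matches to the serum response element core (the CArG box), the cyclic AMP response element half-site TGACG, and an NF-kB site. Capitals mark these matches, and all lines read 5′ to 3′ on the plus strand, which is the strand of each gene.
Egr2, chr10:67537619-67537918: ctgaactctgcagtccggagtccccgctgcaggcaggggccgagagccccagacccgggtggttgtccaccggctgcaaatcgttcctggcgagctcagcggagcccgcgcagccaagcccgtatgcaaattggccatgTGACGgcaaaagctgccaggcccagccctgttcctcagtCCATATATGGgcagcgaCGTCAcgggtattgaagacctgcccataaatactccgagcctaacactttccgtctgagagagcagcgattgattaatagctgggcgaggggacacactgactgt
Fos, chr12:85473640-85473939: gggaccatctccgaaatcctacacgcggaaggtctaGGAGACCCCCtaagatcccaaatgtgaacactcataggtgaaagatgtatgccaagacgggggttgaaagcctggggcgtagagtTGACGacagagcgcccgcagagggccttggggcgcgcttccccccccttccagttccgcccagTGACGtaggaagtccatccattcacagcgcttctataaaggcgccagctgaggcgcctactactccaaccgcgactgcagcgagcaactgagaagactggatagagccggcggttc
Ier3, chr17:35821463-35821762: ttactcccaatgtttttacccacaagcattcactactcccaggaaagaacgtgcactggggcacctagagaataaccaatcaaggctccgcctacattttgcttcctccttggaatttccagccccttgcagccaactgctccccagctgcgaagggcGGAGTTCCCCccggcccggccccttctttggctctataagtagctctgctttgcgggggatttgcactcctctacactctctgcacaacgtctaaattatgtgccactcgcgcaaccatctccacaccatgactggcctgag
The Egr2 window holds a CArG box at -72 from the annotated start, with half-sites at -111 and, on the opposite strand, at -55. The Fos window holds half-sites at -129 and -66 and an NF-kB match, on the opposite strand, at -214. The Ier3 window holds an NF-kB match at -92, also on the opposite strand.

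Both strands were searched for each motif in the 32841 RefSeq windows of this length, which belong to 27018 genes. By gene, a CArG box lay in at least 1 window of 1.81% of them, TGACG in 23%, an NF-kB match in 9.55%, the full element TGACGTCA in 2.03%, the AP-1 site TGANTCA in 8.98% and the EGR site GCGNGGGCG in 6.27%. TGACG lies within TGACGTCA, and no other of these motifs contains another. Among the 6 genes searched, TGACG was found in 4 (Fosb, Junb, Egr2 and Fos). An NF-kB match was found in 4 (Fosb, Egr2 in another of its 5 windows, Fos and Ier3). A CArG box was found in 1 (Egr2), the EGR site in 1 (Fosb) and TGANTCA and TGACGTCA in 0. These counts do not cover Egr3, Ier2 and Myc, for which no window was matched. Nor do they cover Egr1, which was left out, while the shares over all genes kept its chromosome. These are matches of letters in a short window and not measured sites. Sequence further than 250 bases before a start was not searched. A missing match, as of a CArG box for Fos, therefore says nothing about sites there.

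Egr1, Egr2 and Egr3 encode zinc finger factors that bind the same GC-rich element. EGR1 is a factor of vessel wall and lung under stress, while EGR2 and EGR3 are best known from myelin formation, lymphocytes and muscle spindles. Their saline values spanned the widest ranges of the 10 genes, from 1.46 to 1.56 log2, and their 3 differences were positive.

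Egr1 measured 2.58, 3.95 and 2.40 log2 in saline mice 1, 2 and 3, and 3.63, 3.42 and 4.19 with antithrombin. The groups overlapped through saline mouse 2, which lay above antithrombin mice 1 and 2, while saline mice 1 and 3 lay below every antithrombin mouse. The means were 2.97 ± 0.85 (SD, n = 3) with saline and 3.74 ± 0.40 (SD, n = 3) with antithrombin, a difference of 0.77 log2 (SE 0.43, 95% interval -0.25 to 1.79, limma adjusted p = 0.326). Leaving out saline mouse 2 gave 1.26 log2 (SE 0.24, adjusted p = 0.0379), a 2.39-fold higher level. Without saline mouse 3 it was 0.48 log2 and without saline mouse 1 it was 0.57.

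Egr2 measured 0.86, 1.35 and -0.12 log2 with saline, and 1.36, 1.48 and 2.32 with antithrombin. The groups did not overlap, but saline mouse 2 and antithrombin mouse 1 were almost level. The means were 0.70 ± 0.75 and 1.72 ± 0.52 (SD, n = 3 each), a difference of 1.02 log2 (SE 0.42, 95% interval 0.03 to 2.01, limma unadjusted p = 0.045, adjusted p = 0.223), or 2.03-fold. Leaving out saline mouse 3 gave 0.61 and leaving out antithrombin mouse 3 gave 0.72. Its unadjusted p was above 0.05 without either of these, without saline mouse 1 and without antithrombin mouse 2. It was also above 0.05 with the slide row or the mouse number as a block. Without saline mouse 2 the difference was 1.35 log2 (SE 0.40, adjusted p = 0.0854).

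Egr3 measured -2.88, -1.58 and -3.04 log2 with saline, and -1.56, -1.20 and -0.06 with antithrombin. Again the groups met without overlapping, at saline mouse 2 and antithrombin mouse 1. The difference between means of -2.50 ± 0.80 and -0.94 ± 0.78 (SD, n = 3 each) was 1.56 log2 (SE 0.51, 95% interval 0.35 to 2.76, limma unadjusted p = 0.0187, adjusted p = 0.177), a 2.94-fold higher level and the largest point estimate of the 10 genes. A second detected Egr3 probe gave 1.99 log2 (SE 0.56). With saline mouse 2 left out the difference was 2.01 log2 (SE 0.44, adjusted p = 0.0464), or 4.04-fold, and without antithrombin mouse 3 it was 1.12 log2. Its unadjusted p was above 0.05 when that mouse, saline mouse 1 or saline mouse 3 was left out.

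Of the 4 AP-1 genes, 0 had an unadjusted p under 0.05 with all mice, and the groups of all 4 overlapped. Fos and Jun encode the founding partners of the dimer, Fosb a second FOS protein and Junb a JUN protein that often restrains JUN activity.

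Fos measured 2.89, 3.49 and 2.72 log2 with saline, and 2.70, 2.61 and 2.72 with antithrombin. The antithrombin mice lay close together, with an SD of 0.06 against 0.40 among saline mice, near the lowest saline mouse. The difference was -0.35 log2 (SE 0.20, 95% interval -0.84 to 0.13, limma adjusted p = 0.336). Without saline mouse 2 it was -0.13 (adjusted p = 0.481), and without saline mouse 3 it was -0.51, with an unadjusted p under 0.05 and an adjusted p of 0.377.

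Fosb measured -2.31, -1.67 and -2.40 log2 with saline, and -2.15, -1.42 and -1.23 with antithrombin. Antithrombin mouse 1 lay among the saline mice, and the other 2 lay above all of them. The difference was 0.53 log2 (SE 0.29, 95% interval -0.18 to 1.23, limma adjusted p = 0.327), and 0.75 (adjusted p = 0.135) without saline mouse 2. It was 0.80 without antithrombin mouse 1, with groups that then did not overlap, an unadjusted p under 0.05 and an adjusted p of 0.287, and it was 0.34 without antithrombin mouse 3.

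Jun measured 5.34, 5.56 and 5.53 log2 with saline, and 5.29, 5.43 and 5.39 with antithrombin, a difference of -0.10 (SE 0.11, 95% interval -0.37 to 0.17, limma adjusted p = 0.605). Junb measured 5.75, 6.12 and 5.68 log2 with saline, and 5.89, 5.88 and 6.10 with antithrombin, a difference of 0.10 (SE 0.15, 95% interval -0.26 to 0.47, limma adjusted p = 0.700). Both pairs of groups overlapped, and both intervals include 0. A second Junb probe gave 0.35 log2. The differences without saline mouse 2 were -0.06 for Jun and 0.24 for Junb.

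Ier2 and Ier3 are small early response genes, the former encoding a nuclear protein and the latter a stress-induced regulator of cell survival that NF-kB induces. Ier2 measured 2.58, 3.18 and 2.41 log2 with saline, and 2.65, 2.58 and 2.70 with antithrombin. As for Fos, the antithrombin mice lay close together, with an SD of 0.06 against 0.40. The difference was -0.08 log2 (SE 0.20, 95% interval -0.57 to 0.41, limma adjusted p = 0.833), and it was 0.15 without saline mouse 2, which turned its sign.

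Ier3, whose promoter window with the NF-kB match is printed above, measured 3.00, 3.84 and 2.88 log2 with saline, and 3.59, 3.70 and 3.86 with antithrombin. Saline mouse 2 lay between antithrombin mice 2 and 3, and the other saline mice lay below all antithrombin mice. The difference was 0.48 log2 (SE 0.26, 95% interval -0.13 to 1.09, limma adjusted p = 0.312). Without saline mouse 2 it was 0.77 (SE 0.13, adjusted p = 0.0321), or 1.71-fold, and without saline mouse 3 it was 0.30.

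Myc encodes the factor that, paired with MAX, drives genes of ribosome assembly, nucleotide synthesis and growth. It measured 0.20, 0.53 and -0.01 log2 with saline, and 0.90, 0.66 and 0.93 with antithrombin. Every antithrombin mouse lay above every saline mouse, with saline mouse 2 nearest. The means were 0.24 ± 0.27 and 0.83 ± 0.15 (SD, n = 3 each), a difference of 0.59 log2 (SE 0.17, 95% interval 0.20 to 0.99, limma unadjusted p = 0.00962, adjusted p = 0.160), or 1.51-fold. A second Myc probe gave 0.58 (SE 0.17). The difference was 0.74 without saline mouse 2 (SE 0.14, adjusted p = 0.0366), or 1.67-fold. Its unadjusted p stayed under 0.05 when any 1 mouse was left out, and its differences then ran from 0.47 to 0.74.

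**Figure D2:**
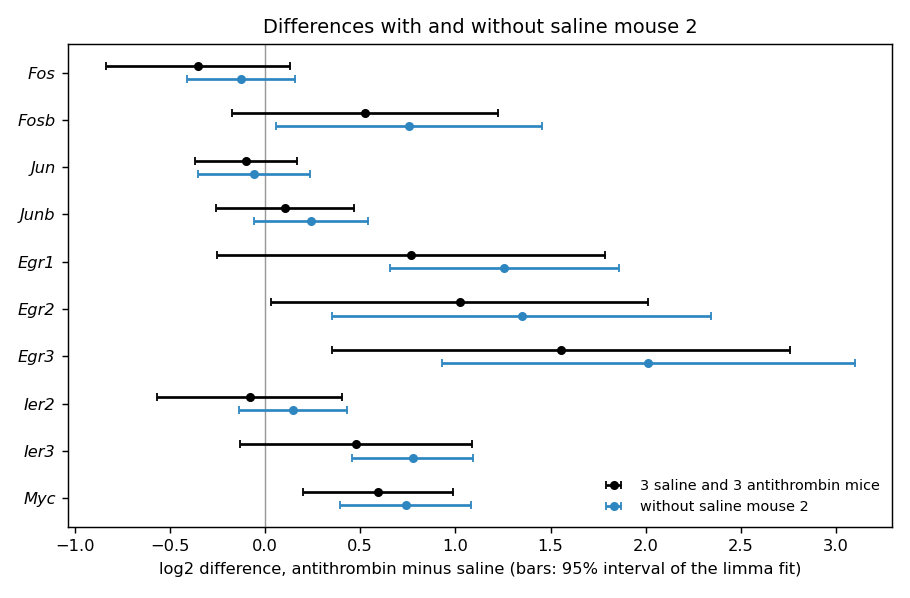
Difference of each immediate early gene, antithrombin minus saline in log2 units, with the 95% interval of the limma fit. Black points use 3 saline and 3 antithrombin mice and blue points leave out saline mouse 2. With all mice the intervals of Egr2, Egr3 and Myc lie above 0, and without saline mouse 2 so do those of Fosb, Egr1 and Ier3.

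Mice of the same group also differed from each other across most of the 10 genes. Antithrombin mouse 3 held the highest value of its group for 9 of 10 genes, against 39.7% of all tested genes, and saline mouse 3 the lowest of its group for 9 of 10, against 32.8%. Both arrays labelled mouse 3 lay in the second row of the slide, and the other 4 in the first. Within the first row the difference was 0.26 log2 for Egr1, 0.31 for Egr2, 0.85 for Egr3, 0.23 for Ier3, 0.42 for Myc and 0.20 for Fosb. Within the second row, with 1 array a group and so no test, it was 1.79, 2.44, 2.97, 0.98, 0.94 and 1.17 for the same genes. The differences of these 6 genes had the same sign in both rows. For Fos it was -0.53 and 0.00, for Jun -0.09 and -0.13, for Junb -0.05 and 0.42, and for Ier2 -0.27 and 0.29. With the slide row as a block in the limma fit, Egr3 and Myc kept an unadjusted p under 0.05 and Egr2 did not (adjusted p of 0.236, 0.224 and 0.279), so the 3 members became 2. The part of the slide row in these differences was not tested further.

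Correlated with the mean standardised profile of the other 9 members over the 6 arrays, Junb had a Pearson r of 0.98, Egr1 of 0.96, Ier3 of 0.95, Egr3 of 0.82, Fosb of 0.81, Egr2 of 0.80, Ier2 of 0.72, Myc of 0.68, Fos of 0.32 and Jun of 0.04. These describe 6 arrays that include the group difference, and carry no test. Of 16585 other symbols searched, the 5 most like the mean profile of the 10 genes were Pomk (r = 0.995), Tmem120b (0.992), Gm4814 (0.988), Lta (0.988) and Sox9 (0.987). The 3 most unlike were Rnf223 (-0.995), Hacl1 (-0.993) and H2-T10 (-0.988).

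**Figure D3:**
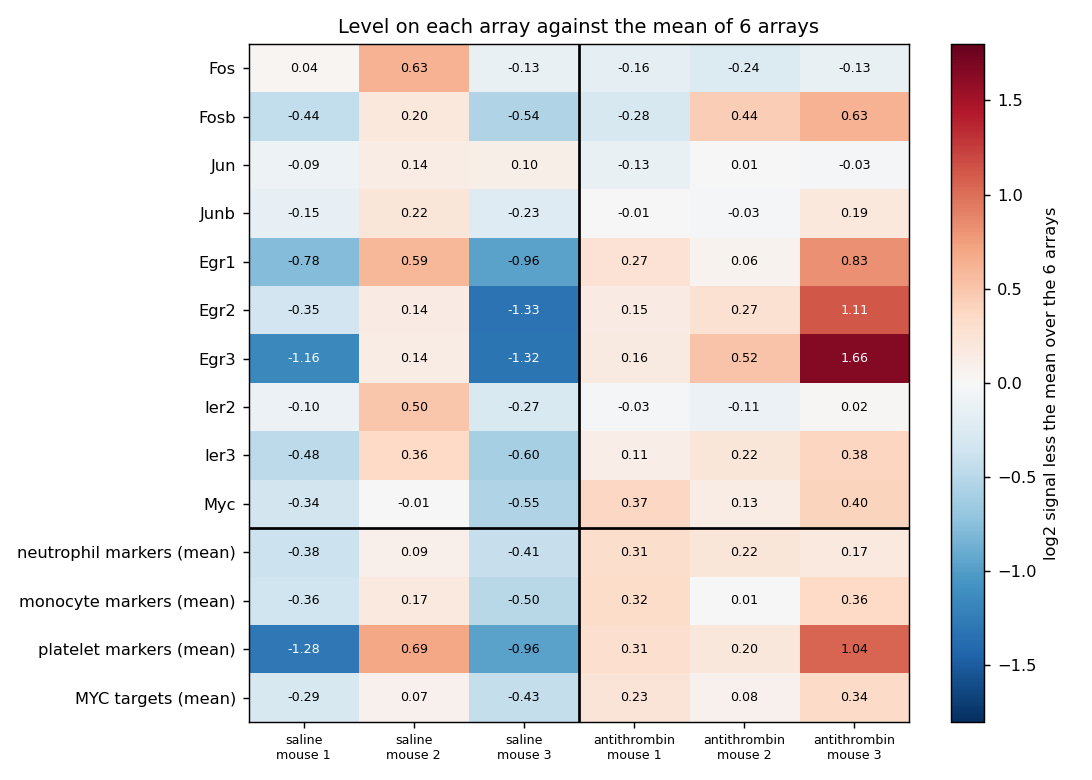
Level on each array less the mean over the 6 arrays, in log2 units, for the 10 immediate early genes and for the mean of 4 gene lists. Red is above and blue below the mean, and the vertical line parts saline from antithrombin. Saline mice 1 and 3 are below 0 for Egr1, Egr2, Egr3, Ier3 and Myc and for all 4 lists, and saline mouse 2 is above 0 for all 4 lists.

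Several marker lists of other cell types differed between the groups or followed saline mouse 2. The mean of the 7 tested neutrophil markers of 8 listed was 5.39, 5.87 and 5.37 log2 in saline mice 1, 2 and 3, and 5.95 to 6.09 with antithrombin, so that saline mouse 2 again stood nearest the antithrombin mice. Of these 7 genes, 6 were higher with antithrombin, against 43.0% of all tested genes. At an unadjusted limma p under 0.05, 2 were higher, the collagenase Mmp8 (0.79 log2) and the chemokine receptor Cxcr2 (0.67 log2), against 8.74%. The summed signal of the 7 in log2 units was 9.83 to 10.14 with saline and 10.04 to 10.27 with antithrombin. Ly6g could not be named here.

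The 5 platelet markers averaged -1.61, 0.36 and -1.29 log2 with saline, and -0.02, -0.12 and 0.72 with antithrombin. Their summed signal was 4.94 to 5.55 log2 with saline and 5.42 to 5.61 with antithrombin. Of their differences 5 of 5 were positive, against 43.0% of all tested genes. At an unadjusted p under 0.05 there were 0, against 8.74% higher and 12.9% lower. The 5 monocyte markers, 1 of which is Nr4a1, averaged 3.16, 3.69 and 3.02 log2 with saline, and 3.85, 3.53 and 3.88 with antithrombin. Their summed signal ran the other way, from 8.52 to 8.64 log2 with saline and 8.41 to 8.54 with antithrombin. Most of that sum was the signal of 1 gene, Ly6c2 (means of 8.22 with saline and 8.04 with antithrombin). Of the 5 monocyte differences 4 were positive, against 43.0% of all tested genes. Every tested marker of these 3 lists was well above background on all 6 arrays. Without saline mouse 2 the median difference went from 0.29 to 0.43 log2 for the neutrophil list, from 1.15 to 1.86 for the platelet list and from 0.26 to 0.52 for the monocyte list.

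Other lists varied in whether saline mouse 2 stood nearest the antithrombin mice. The 5 smooth muscle markers averaged 0.98, 1.22 and 1.28 log2 with saline and 1.85, 1.86 and 1.74 with antithrombin. Of these, 4 of 5 were higher at an unadjusted p under 0.05, against 8.74% of all tested genes. The summed signal of the 5 was 4.87 to 5.04 log2 with saline and 5.20 to 5.27 with antithrombin. Of the alveolar type 1 markers 4 of 5 were tested and 3 were lower at that p, against 12.9% of all tested genes. The summed signal of the 4 was 7.78 to 7.94 log2 with saline and 7.41 to 7.61 with antithrombin. The alveolar type 1 markers averaged 4.66, 4.46 and 4.85 log2 with saline, and 4.31, 4.19 and 4.17 with antithrombin. By these means the saline mouse nearest the antithrombin mice was mouse 3 for smooth muscle and mouse 2 for alveolar type 1. In neither list was saline mouse 2 among the antithrombin mice. The 3 tested erythroid markers averaged 5.50, 4.65 and 5.61 log2 with saline, and 5.14, 5.46 and 3.15 with antithrombin. T cell and B and plasma cell lists had 0 and 1 genes higher at that p and their groups overlapped. The part of these cells in the levels of the immediate early genes was not tested.

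The relatives of these genes were counted in 7 lists, which hold 163 genes, of which 159 were tested. With all 6 arrays 0 of them passed the adjusted threshold, against the 0.00617% given above, and 45 had an unadjusted p under 0.05, 30 higher with antithrombin and 15 lower. Those shares, and the counts of each list below, are read against 8.74% higher and 12.9% lower over all tested genes. Without saline mouse 2, 4368 of the 32426 tested were higher at that p and 5951 lower. The count of 45 was sensitive to single mice: it was 79 without saline mouse 2, and it was 15 without saline mouse 1, 16 without saline mouse 3, 25 without antithrombin mouse 1 and 16 without antithrombin mouse 3.

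Of the AP-1 relatives, other members and dimer partners of the FOS and JUN families, 15 of 16 were tested, and at an unadjusted p under 0.05 higher genes numbered 3 and lower genes 0. The median was 0.21 log2, and 0.27 without saline mouse 2, when 6 were higher. Fosl1, the FOS relative FRA-1, measured -2.94, -1.29 and -2.67 log2 with saline, and -1.03, -1.28 and -0.53 with antithrombin, a difference of 1.35 (SE 0.44, limma adjusted p = 0.177). Atf3, the stress-induced partner, measured -0.23, 1.00 and -0.30 log2 with saline, and 1.36, 1.39 and 1.81 with antithrombin, a difference of 1.37 (SE 0.36, limma adjusted p = 0.155). For both genes the groups did not overlap, saline mouse 2 was the nearest saline mouse, and the adjusted p without it was 0.0265 for Fosl1 and 0.0242 for Atf3. The third, Maf, differed by 0.49 log2. Batf differed by 0.21 and Maff by 0.20. Jund, the JUN protein of resting cells, was lower by groups that did not overlap (-0.22 log2, limma adjusted p = 0.243), and Fosl2 gave 0.33 on 1 probe and -0.21 on the other.

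Other early response genes went both ways, at shares near those of all tested genes. Of 32, 31 were tested. At an unadjusted p under 0.05, 2 were higher and 5 lower, against 8.74% and 12.9% of all tested genes. The median was -0.05 log2 (-0.03 without saline mouse 2, and 0.03 or -0.14 with antithrombin mouse 1 or 3 left out). The 5 lower were 8 without saline mouse 2, 1 without saline mouse 1, 1 without saline mouse 3, 1 without antithrombin mouse 2 and 2 without antithrombin mouse 3, and the 2 higher were 6 without saline mouse 2 and 1 without any of saline mice 1 and 3 and antithrombin mice 1 and 3. Over all 32426 tested, 2833 higher and 4186 lower became 4368 and 5951 without saline mouse 2. Egr4 was not well above background on enough arrays to be tested. The higher were Npas4, an activity-dependent factor (1.25 log2, SE 0.36, and 1.68 with an adjusted p of 0.0242 without saline mouse 2), and Ccn1, a matricellular protein (0.56). Rgs1, which damps signalling of chemokine receptors, measured 0.53, -0.17 and 0.36 log2 with saline, and -0.65, -1.42 and -1.66 with antithrombin, a difference of -1.48 (SE 0.30) with the smallest p of the list. It was -1.68 (adjusted p = 0.0352) without saline mouse 2. Nr4a3, an orphan nuclear receptor, was lower by groups that did not overlap (-0.48). Its relatives Nr4a1 (0.26) and Nr4a2 (-0.14), as well as Ier5 (0.36), Klf2 (-0.07), Klf4 (-0.20), Klf6 (-0.27) and Btg2 (-0.23 and 0.04 on its 2 probes), did not reach that p.

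The kinases and resident factors that feed these genes differed little. Of 29 tested, 0 were higher and 1, the p38 activator Map2k3 (-0.44 log2), was lower by an unadjusted p under 0.05, and the median was -0.06 log2, close to that of all tested genes. Leaving out saline mouse 2 left the median at -0.06, with 2 higher and 3 lower, and leaving out antithrombin mouse 3 gave -0.11 with 0 of either. Srf encodes the factor of the CArG box, a match to which is marked in the Egr2 window. It differed by 0.32 log2 (limma adjusted p = 0.308), and by 0.50 without saline mouse 2 (adjusted p = 0.0472). Elk1 (-0.08), Creb1 (-0.03), Mapk3 (0.01) and Mapk14 (-0.06) lay near 0. RNA levels do not show the phosphorylation by which these proteins act.

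Feedback inhibitors, which switch off the kinases or shorten the transcripts, were the related list with the largest count of lower genes. Of 23, 22 were tested. At an unadjusted p under 0.05, 3 were higher and 8 lower, against 8.74% and 12.9% of all tested genes. The median was -0.10 log2, or -0.17 without saline mouse 2, when 6 were higher and 8 lower. Over all 32426 tested, 4368 were higher and 5951 lower without that mouse. Dusp1, the phosphatase of p38 and JNK, measured 5.83, 5.93 and 5.87 log2 with saline, and 5.51, 5.27 and 4.81 with antithrombin, a difference of -0.68 (SE 0.18, limma adjusted p = 0.156). Here saline mouse 2 sat with the other saline mice and the groups did not overlap. Dusp4 differed by -0.80 (SE 0.22), also without overlap, with an adjusted p of 0.0278 without saline mouse 2. Nab2, the corepressor that EGR proteins induce and that restrains them, differed by 0.38 (limma adjusted p = 0.195) without overlap. Dusp2 (0.53), Dusp5 (0.15), Dusp6 (0.23) and Zfp36 (0.00), which encodes an RNA-destabilising protein, had unadjusted p above 0.05. The 8 lower genes of this list were 2 without saline mouse 1, 2 without saline mouse 3, 4 without antithrombin mouse 1, 3 without antithrombin mouse 2 and 3 without antithrombin mouse 3. Its 3 higher genes were 1 without saline mouse 1, saline mouse 3 or antithrombin mouse 2, and 0 without antithrombin mouse 3.

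Genes known as AP-1 or EGR targets had a median of 0.23 log2 over 21 tested of 22. It was 0.39 without saline mouse 2, 0.36 without antithrombin mouse 2, 0.15 without saline mouse 3 and 0.12 without antithrombin mouse 3. At an unadjusted p under 0.05, 3 were higher and 1 lower, and without saline mouse 2 these were 7 and 3. Without saline mouse 1 the higher were 1. Pdgfb, a platelet-derived growth factor chain, differed by 0.80 (SE 0.25) and Ptgs2, the inducible cyclooxygenase, by 0.71 (SE 0.20), both without overlap, and the adjusted p of Pdgfb was 0.0283 without saline mouse 2. F3, which encodes tissue factor, differed by -0.34, and by -0.54 (adjusted p = 0.048) without saline mouse 2. Plaur (0.14) and Timp1 (-0.27) had unadjusted p above 0.05.

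In the MAX network, the partners and rivals of MYC, 13 were tested, 1 was higher and 0 were lower by an unadjusted p under 0.05, and the median was -0.09 log2. Without saline mouse 2 the median was also -0.09, with 4 higher and 2 lower, and leaving out antithrombin mouse 1 or 3 gave -0.15 or -0.05. That gene was Mxd3 (0.49 log2, SE 0.12), a MAX dimerisation protein. Max (-0.18), Mxd1 (0.35), Mxi1 (-0.23), Mnt (-0.30) and Mycl (-0.19) did not reach that p, and the groups of Mxd1, Mxi1 and Mnt did not overlap. Mycn, the MYC protein of developing tissue, measured -1.11, 2.07 and -2.21 log2 with saline, and 1.64, 1.33 and 2.42 with antithrombin. Its saline mice spanned more than the gap between the group means, and its difference was 2.21 (SE 1.02, limma adjusted p = 0.259), or 3.45 (adjusted p = 0.0264) without saline mouse 2.

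Genes known as MYC targets lay almost wholly on 1 side. All 28 were tested, 28 of 28 differences were positive, against 43.0% of all tested genes, and the median was 0.41 log2, or 0.53 without saline mouse 2. At an unadjusted p under 0.05, 18 were higher and 0 lower, against 8.74% and 12.9% of all tested genes. The groups of 15 did not overlap, all higher, against 10.7%. The 2 with the smallest p were Shmt1, an enzyme of folate metabolism (0.41 log2, SE 0.10, with 0.07 on its other probe), and Tfrc, the transferrin receptor (0.55, SE 0.15), whose adjusted p was 0.0395 without saline mouse 2. Npm1, a nucleolar chaperone (0.31), and Nop56, a ribosomal RNA processing factor (0.48), had unadjusted p under 0.05, while Odc1, the polyamine enzyme (0.41), and Ncl, nucleolin (0.07, with 0.38 on its other probe), did not. The 18 were 24 without saline mouse 2, but 4 without saline mouse 1 and 5 without saline mouse 3. They were 6 without antithrombin mouse 1, 16 without antithrombin mouse 2 and 4 without antithrombin mouse 3. Over all tested genes the 2833 higher became, in the same order, 4368, 1898, 1879, 2214, 2165 and 1829. In the list, 28 of 28 differences were positive each time. The mean of the list was 2.14, 2.50 and 2.01 log2 with saline, and 2.66, 2.51 and 2.77 with antithrombin, so it too put saline mouse 2 just below the antithrombin mice.

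**Figure D4:**
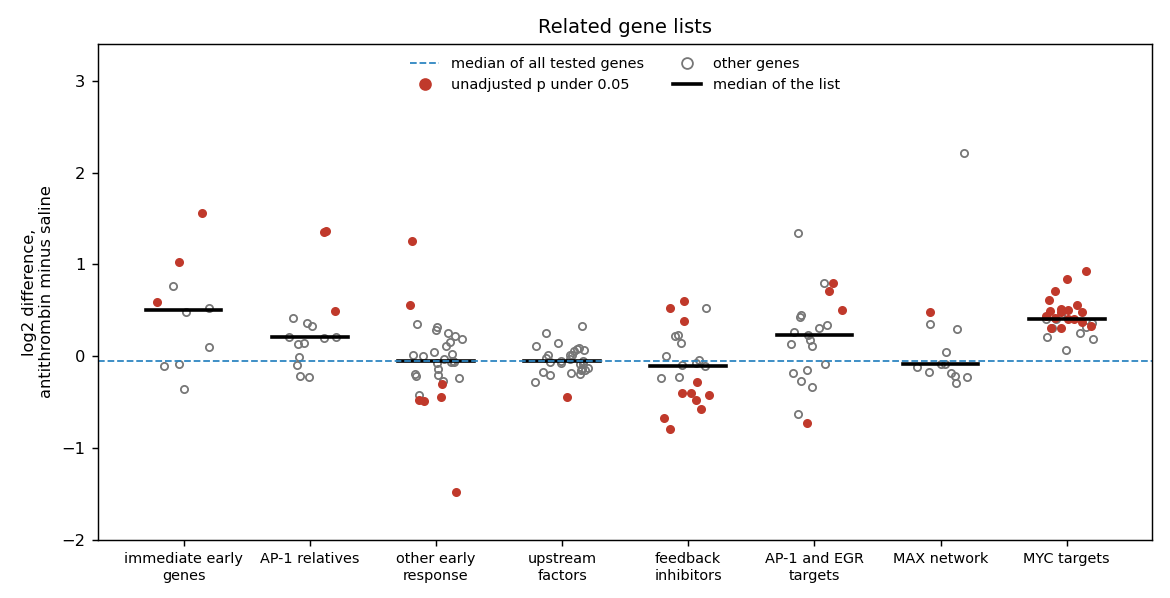
Difference of each tested gene, antithrombin minus saline in log2 units, for the 10 immediate early genes and 7 related lists. Filled red points had an unadjusted limma p under 0.05, open points did not, black bars are the list medians and the dashed line is the median of all tested genes (-0.05). The MYC targets all lie above 0, and the list medians run from -0.10 for feedback inhibitors to 0.50 for the immediate early genes.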

How the data were processed

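Groups and mouse numbers came from the sample titles. The authors' scanner files give 1 background-subtracted intensity per spot, not scaled between arrays, made with Agilent Feature Extraction 10.7.3.1 per the file headers. The submitters' processing notes name Agilent Feature Extraction 9.1, and the difference was not resolved. The deposited value table holds log2 values. After a constant was removed from each probe and a shift from each array, 100% of them matched the scanner files within 0.01, and they served as an alternative. Their scaling between arrays and the origin of the constant are unknown, and the column medians ran from -0.0372 to 0.0770.

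Controls and outlier spots were removed, with 31 genes or probes lost to the latter, and spots of a probe were averaged. Of 56605 probes, 32994 were named through RefSeq accessions (GRCm38.p6). The array design names another build, so coordinates are given for the RefSeq promoter windows alone. Testing required a signal well above background on 3 or more arrays. Differences were tested two-sided with limma 3.58.1 in R 4.3.3 (lmFit, eBayes), with Benjamini-Hochberg adjustment over all 32426 tested and a threshold of 0.05. The script was tested on simulated data. The 6 arrays shared 1 slide and 1 scan date. Figures were drawn with matplotlib 3.10.9.

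The labels name separate mice, so n counts mice. The genes, lists and tests were chosen with earlier results of these data known. The named genes are the 10 members, names fixed from the related lists, the 2 tested genes of each list with the smallest p, and the 5 symbols most like and 3 most unlike the members' mean profile. The cell markers Mmp8 and Cxcr2 fall outside that rule and were named after their values were seen. A few named genes are left out of the text. Samples with the same mouse number did not deviate together, so the main fit has no block. That does not exclude a pairing, and a fit with the mouse number as a block is among the alternatives.

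The alternatives were normexp (offset 50, on median pixel signals), quantile normalisation, median scaling, no filter, a filter of all 6 arrays, the mean of detected probes, the deposited table, a trended robust variance, mouse number or slide row as a block, and leaving out each mouse.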

Additional observations from a re-analysis of the deposited data

How the results depend on the processing

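Over 16 alternatives the differences of Fosb, Junb, Egr1, Egr2, Egr3, Ier3 and Myc were positive and those of Fos and Jun negative in each, while Ier2 ran from -0.24 to 0.15 log2 when single mice were left out. Leaving out single mice gave 0 to 4 members past the adjusted threshold, 1 to 6 at an unadjusted p under 0.05, 3 to 7 without overlap, and 15 to 79 related genes at an unadjusted p under 0.05. The highest of each came without saline mouse 2. With the mouse number as a replicate block, 22 related genes, in place of 45, and 2 members had an unadjusted p under 0.05, and the MYC targets among them were 6 in place of 18 (11 with the slide row as a block). Members at that p also numbered 2 with the slide row as a block and with no filter on dim probes. Same-numbered mice had correlations of deviations of -0.01, -0.16 and -0.28. With 3 mice a group these cannot exclude a pairing, and the labels do not say what the numbers mark. Over all tested genes, the 7019 with an unadjusted p under 0.05 were 10319 without saline mouse 2, 4207 without saline mouse 3 and 4435 without antithrombin mouse 3. The cause of these shifts was not tested. With 3 arrays a group, the 95% intervals of 7 members include 0 and still allow differences as large as their bounds.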
